A study of Mus musculus with 4 samples.

Results

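Leydig cells lie between the seminiferous tubules and make testosterone and the peptide hormone INSL3. A set of 10 genes that mark these cells or receive their hormonal signals was followed in the testis transcriptome of mice mutant for Lrrc8a and of wild-type mice. The genes were chosen by symbol, as 2 hormone receptors (Lhcgr and Prlr), the hormone gene Insl3 and 7 genes proposed as Leydig markers outside steroid synthesis (Hao2, Sult1e1, Cyp2a4, Cyp2a5, Akr1b7, Vcam1 and Fabp3). The choice was made with earlier results of these data known. All 10 were found among the 24420 symbols of the deposited table. There were 2 testis libraries from mice labelled lrrc8a MUT (MUT 1 and MUT 2), set against 2 testis libraries from wild-type mice (WT 1 and WT 2). All 4 came from the FVB strain, with no age given in the sources used here. Lrrc8a encodes an obligatory subunit of the volume-regulated anion channel. Neither the kind of mutation nor the number of animals behind a library is stated in the labels. A p-value here reflects how far these libraries spread, taken largely from other genes, and part of that spread may be technical. The labels also name the cell type as germ cells, with testis as the source.

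Luteinizing hormone from the pituitary acts on the receptor encoded by Lhcgr, which raises cyclic AMP and so drives the transport of cholesterol into mitochondria and its conversion to testosterone. Prolactin acts on a cytokine receptor, encoded by Prlr, which signals through the kinase JAK2 and the transcription factors STAT5A and STAT5B. In rodents, prolactin is known to raise the number of luteinizing hormone receptors on Leydig cells. INSL3 leaves the Leydig cell and acts on the receptor RXFP2, which the descent of the testis needs before birth.

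Of the 10 genes, Prlr was the only one whose level passed the test, and it was higher in MUT testis. Prlr lies on chromosome 15 between 10177238 and 10349180 (GRCm38, plus strand), where it overlaps Gm21973 on the same strand. Of the stretches of 50 bases in the Prlr transcript, 1.56% also occur in Gm21973. RefSeq gives Prlr 3 start sites. The table holds 1 value for the gene, so reads from these starts cannot be told apart. Their surroundings are shown because Prlr carries the called change, each from 250 bases before to 50 bases after the start, on GRCm38.p6. The positions are chr15:10176988-10177287, chr15:10223656-10223955 and chr15:10293401-10293700. Capitals mark a STAT motif, TTCNNNGAA.
Prlr upstream start: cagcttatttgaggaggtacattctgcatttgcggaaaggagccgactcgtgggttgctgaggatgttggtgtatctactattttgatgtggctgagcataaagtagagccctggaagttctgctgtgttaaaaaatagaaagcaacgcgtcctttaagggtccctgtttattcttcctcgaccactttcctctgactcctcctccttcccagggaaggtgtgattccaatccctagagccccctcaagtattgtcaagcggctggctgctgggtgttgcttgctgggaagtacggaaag
Prlr middle start: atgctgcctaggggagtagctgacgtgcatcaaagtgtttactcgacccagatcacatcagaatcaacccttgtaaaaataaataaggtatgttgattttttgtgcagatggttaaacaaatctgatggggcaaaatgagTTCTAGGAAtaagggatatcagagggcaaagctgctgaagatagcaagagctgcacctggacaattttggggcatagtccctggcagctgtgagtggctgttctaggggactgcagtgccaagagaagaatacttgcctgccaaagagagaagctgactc
Prlr downstream start: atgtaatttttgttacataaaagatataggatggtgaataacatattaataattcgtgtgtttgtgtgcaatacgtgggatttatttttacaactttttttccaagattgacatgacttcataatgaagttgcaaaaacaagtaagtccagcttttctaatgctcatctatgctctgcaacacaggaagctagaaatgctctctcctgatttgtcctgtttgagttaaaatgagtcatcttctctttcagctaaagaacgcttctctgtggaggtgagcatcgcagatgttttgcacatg

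The start of Lhcgr, the other receptor, is shown for comparison, from chr17:88791965-88792264 on the minus strand. It had a GC content of 64%, against 49.3%, 45.7% and 35.3% at the upstream, middle and downstream starts of Prlr.
Lhcgr start: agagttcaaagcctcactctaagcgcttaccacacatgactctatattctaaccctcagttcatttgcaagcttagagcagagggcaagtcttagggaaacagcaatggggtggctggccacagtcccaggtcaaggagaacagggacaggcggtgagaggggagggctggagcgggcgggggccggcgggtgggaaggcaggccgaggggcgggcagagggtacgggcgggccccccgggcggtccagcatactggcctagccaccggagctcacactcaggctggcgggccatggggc

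Both strands of the windows were searched for 4 motifs. These were CAAGGTCA and CAAGGCCA, sites of steroidogenic factor 1 (encoded by Nr5a1), TTCNNNGAA, a STAT site, and TGACGTCA, a cyclic AMP response element. Among the 11 windows of the 9 genes that RefSeq matched, the only match was the STAT motif of the middle Prlr start, beginning 110 bases before the start (-110). TTCNNNGAA reads the same on both strands, so the match has no orientation. Of 32851 mouse windows of the same length, 8.3% held that motif. The share was 1.56% for CAAGGTCA, 2.4% for CAAGGCCA and 1.79% for TGACGTCA. Vcam1 was not matched. Sites that differ from the 4 motifs in any fixed letter, or lie outside the windows, would be missed.

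The libraries held between 40426400 and 68192776 reads assigned to genes. Values are CPM, read counts divided by a scaled library size. Genes with at least 1 CPM in at least 2 libraries were tested with limma on log2(CPM + 0.5), and fold changes are on that scale, MUT minus WT. They understate the change of weakly expressed genes. A gene was called at a Benjamini-Hochberg adjusted p under 0.05 over 15364 tested genes. Lrrc8a itself had 13.5 and 15.9 CPM in MUT, against 18.2 and 17.1 CPM in WT testis (a log2 difference of -0.26, limma adjusted p = 0.218). Since the affected part of the gene is not stated, its level need not show the genotype.

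Of the 10 genes, 7 were tested and 3 lay below the filter. The lowest value of a tested one in any library was 2.83 CPM, so none of the 7 entered the test through the levels of a single group. Of the 7, 1 was called, Prlr, against 0.482% of all tested genes called higher and 0.749% called in either direction. The log2 fold change was above 0 for 5 of the 7, against 49.6% of all tested genes. Both MUT libraries lay above both WT libraries for Prlr, Hao2, Lhcgr and Vcam1, and the groups overlapped for Insl3, Sult1e1 and Fabp3. An unadjusted limma p under 0.05 was found for 3 of the 7, against 14.7% of all tested genes, and the counts of such p-values given for other lists stand against this share. Across all tested genes, both MUT libraries lay above both WT libraries in 23.0%, and the groups did not overlap in either direction in 45.6%. Whether 4 of 7 differs from these shares was not tested. As the 10 genes and the lists were chosen with earlier results of these data known, their counts are not independent of the data. The median log2 fold change of the 7 was 0.14, against -0.0016 for all tested genes. In whole tissue, a change in the number of Leydig cells and a change in RNA per Leydig cell cannot be told apart.

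**Figure D1:**
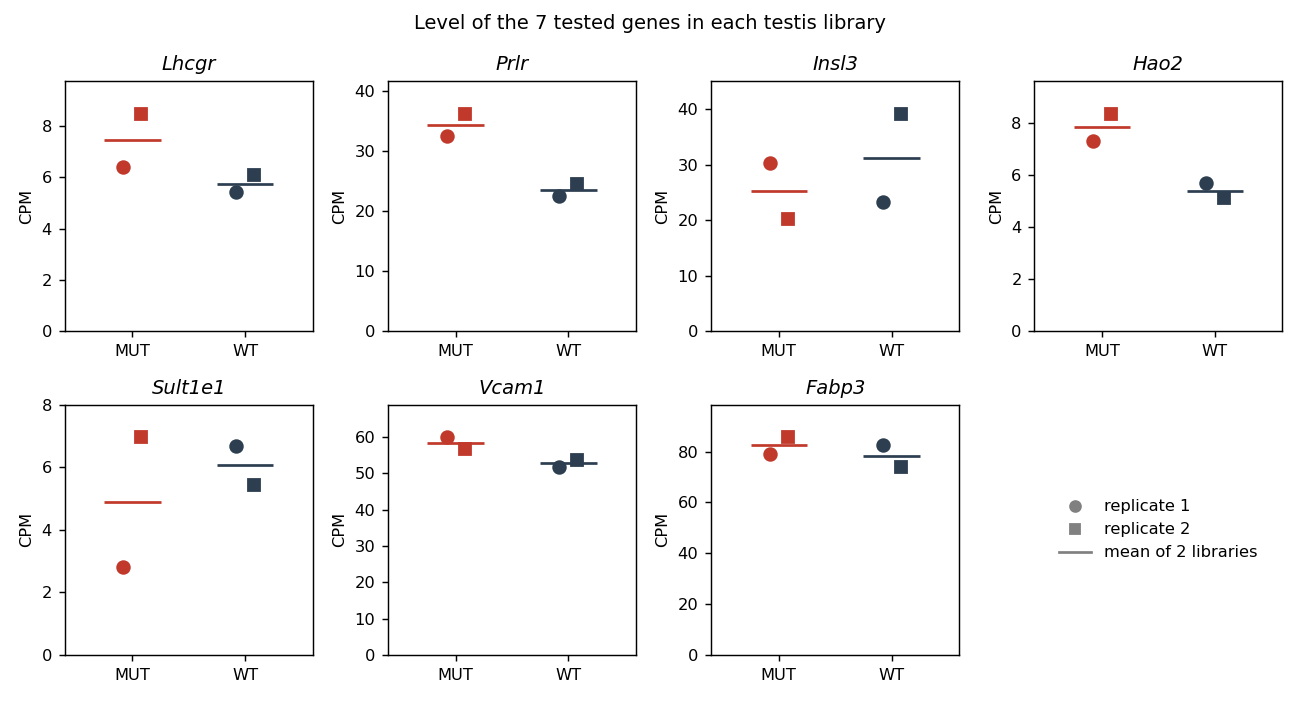
CPM (y axes, from 0) of the 7 tested genes in each library, with MUT left of WT; circles are replicate 1, squares replicate 2 and bars the mean of 2 libraries. The MUT libraries of Prlr, at 32.4 and 36.2 CPM, sit above both WT libraries, while the libraries of Insl3 and Sult1e1 are spread widely within a genotype.

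Prlr had 32.4 and 36.2 CPM in MUT 1 and MUT 2, against 22.6 and 24.5 CPM in WT 1 and WT 2. The gap between genotypes was larger than the gap within either. Counting intervals (exact Poisson, 95%), which cover counting error only and not the spread between libraries, began at 30.9 CPM in the lowest MUT library and ended at 25.9 CPM in the highest WT library. The mean was 34.3 ± 2.67 CPM in MUT and 23.5 ± 1.39 CPM in WT (SD, n = 2 each). Its log2 fold change was 0.53 (SE 0.0874, 95% interval 0.35 to 0.72, limma adjusted p = 0.00488), a rise of 1.45-fold. It ranked 25 by p among the 15364 tested genes. By edgeR (adjusted p = 0.00494) and by DESeq2 (adjusted p = 0.000162) on reads recovered from the CPM it was called too. It also stayed past the threshold with each library left out in turn. In every such fit one genotype has 1 library, which is assumed to vary like the other genotype's pair, so those p-values, here and for the genes below, carry no spread of their own for that genotype. It was lost without the filter on low values (limma adjusted p = 0.114) and without the variance trend (limma adjusted p = 0.176).

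The luteinizing hormone receptor gene Lhcgr, on chromosome 17 from 88716481 to 88791990, had 6.4 and 8.48 CPM in MUT 1 and MUT 2, against 5.41 and 6.09 CPM in WT 1 and WT 2. MUT 1 and WT 2 lay closer together than the 2 MUT libraries did. The log2 fold change of 0.33 (SE 0.133, 95% interval 0.06 to 0.61) did not pass the test (limma adjusted p = 0.241). It was 0.14 without MUT 2 and 0.52 without MUT 1, so its size rested on single libraries.

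The 2 receptors were compared with 29 tested genes of the steroidogenesis and hormone receptor lists, as the root mean square distance between log2 values centred on each gene's own mean over the 4 libraries. Nearest to Lhcgr were Cyp11a1 (0.0661), which encodes the enzyme that cleaves the side chain of cholesterol, and Hsd17b3 (0.0785), whose enzyme makes testosterone from androstenedione. Nearest to Prlr were Il1r1 (0.0654), an interleukin-1 receptor gene, and Cyp11a1 (0.121). With 4 libraries these distances only describe.

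Insl3, on chromosome 8 from 71689214 to 71690575, was unsteady. It had 30.2 and 20.2 CPM in MUT 1 and MUT 2, against 23.3 and 39.2 CPM in WT 1 and WT 2. The highest and the lowest MUT value both lay below WT 2, and WT 1 lay between the MUT libraries. The gap within a genotype was 0.57 in MUT and 0.74 in WT on the log2 scale, wider than counting error: 1474 and 827 reads in MUT and 1568 and 1948 reads in WT. The log2 fold change of -0.28 (SE 0.174, 95% interval -0.65 to 0.08) did not pass the test (limma adjusted p = 0.471). It was -0.57 without MUT 1 (limma adjusted p = 0.000901) and -0.65 without WT 1 (0.0201), both past the threshold in fits with 1 library in a genotype, but 0.001 without MUT 2 and 0.09 without WT 2.

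In the annotation, Insl3 overlaps Jak3, a kinase gene on the same strand. Of the stretches of 50 bases in the Insl3 transcript, 61.8% also occur in a Jak3 transcript. Jak3 had 16.2 and 17.7 CPM in MUT, against 16.8 and 17 CPM in WT. The sources used here do not say how reads shared by the pair were assigned, so the level of Insl3 is uncertain.

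The hormone's receptor and relatives were read from a list of 8 genes of the relaxin family, of which 3 were tested. Rxfp2, the INSL3 receptor gene, had 6.27 and 8.04 CPM in MUT, against 7.52 and 7.28 CPM in WT (log2 fold change -0.05, limma adjusted p = 0.887). Insl6, a relative made by germ cells, had 116.4 and 129.1 CPM in MUT, against 130.1 and 135.1 CPM in WT (-0.11, limma adjusted p = 0.473). Insl5, a gut hormone gene, was near 1 CPM, at 1.09 and 0.953 CPM in MUT and 1.22 and 1.21 CPM in WT. None of the 3 passed limma or edgeR, and 0 had an unadjusted limma p under 0.05. DESeq2 called neither Rxfp2 nor Insl6 and gave no adjusted p for Insl5.

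Among the markers outside steroid synthesis, Hao2 came nearest to a call. It encodes a peroxisomal oxidase of 2-hydroxy acids and lies on chromosome 3 from 98874521 to 98893239. It had 7.32 and 8.36 CPM in MUT 1 and MUT 2, against 5.68 and 5.13 CPM in WT 1 and WT 2. The genotypes did not overlap, and the lowest MUT library lay above the highest WT library by more than the gap within either genotype. Its log2 fold change was 0.50 (SE 0.12, 95% interval 0.25 to 0.75, limma adjusted p = 0.0601). It passed when each library was scaled to the same total CPM (adjusted p = 0.0422), or without MUT 1 (adjusted p = 0.0233), but not by edgeR (adjusted p = 0.0628) or DESeq2 (adjusted p = 0.107).

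Sult1e1 encodes the estrogen sulfotransferase, which inactivates estrogens and is known from mouse Leydig cells. It lies on chromosome 5 from 87575969 to 87591594 and had 2.83 and 6.96 CPM in MUT 1 and MUT 2, against 6.69 and 5.45 CPM in WT 1 and WT 2. MUT 1 was low, while MUT 2 was the highest of the 4. The 95% counting interval of MUT 1 ended at 3.34 CPM, below those of the other libraries, the lowest of which began at 4.82 CPM in WT 2. The log2 fold change of -0.39 (SE 0.231, limma adjusted p = 0.45) turned to 0.19 without MUT 1. Without MUT 2 it was -0.97 and past the threshold (limma adjusted p = 2.39e-06), which rests on MUT 1 alone.

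Vcam1 encodes an adhesion molecule that binds integrins on white blood cells, and endothelial cells use it as well. It lies on chromosome 3 from 116109949 to 116129688. Its level was 59.9 and 56.7 CPM in MUT 1 and MUT 2, against 51.7 and 53.7 CPM in WT 1 and WT 2. The groups did not overlap, but the log2 fold change was small at 0.14 (SE 0.0738, 95% interval -0.01 to 0.30) and did not pass the test (limma adjusted p = 0.377). The 10 endothelial genes had summed levels of 73.3 and 74.7 CPM in MUT, against 77 and 78 CPM in WT. None of these 10 was at 0 in any library, none was called by limma, edgeR or DESeq2 (1 at an unadjusted limma p under 0.05, and 4 with no adjusted p from DESeq2), and 5 had a log2 fold change above 0. The other 5 lay below 0, among them Tie1, Cldn5 and the highest in CPM, Vwf, at -0.36, -0.22 and -0.14. The part of endothelial cells in the level of Vcam1 was not tested.

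Fabp3, on chromosome 4 from 130308595 to 130315463, encodes the heart-type carrier of fatty acids. It had 79.2 and 85.6 CPM in MUT 1 and MUT 2, against 82.7 and 74 CPM in WT 1 and WT 2. The groups overlapped, and the log2 fold change of 0.07 (SE 0.0754, 95% interval -0.08 to 0.23, limma adjusted p = 0.695) was below 0 without WT 2. Of the stretches of 50 bases in its transcript, 29.2% occur in the pseudogene Fabp3-ps1, and the gene overlaps Zcchc17 on the other strand.

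**Figure D2:**
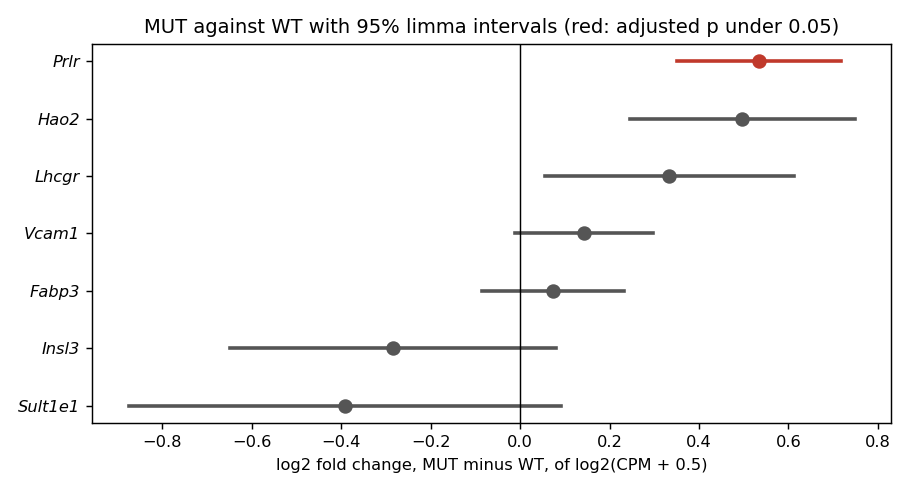
Log2 fold change, MUT minus WT (x axis), of the 7 tested genes with 95% intervals from limma, ordered by size; red marks an adjusted p under 0.05. The interval of Prlr runs from 0.35 to 0.72, and those of Hao2 and Lhcgr also lie above 0 without passing the test over all genes.

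Cyp2a4, Cyp2a5 and Akr1b7 were at or near 0 and were not tested. Cyp2a4 encodes a testosterone 15-alpha-hydroxylase and Cyp2a5 a close paralog, a coumarin 7-hydroxylase. Cyp2a4 had 1 and 0 reads in MUT 1 and MUT 2, against 0 and 3 reads in WT 1 and WT 2. Cyp2a5 had 0 reads in both MUT libraries, against 0 and 1 read in WT 1 and WT 2. The counting interval (exact Poisson, 95%) of a count of 0 ends at 3.69 reads. That is 0.0756 CPM in MUT 1, 0.0901 CPM in MUT 2 and 0.0547 CPM in WT 1, for counting error only. The pair shares sequence: 36.1% of the stretches of 50 bases in the Cyp2a4 transcript also occur in Cyp2a5. The treatment of reads that match both genes is not stated in those sources.

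Akr1b7, which encodes an aldo-keto reductase known from mouse vas deferens and adrenal cortex, had 6 and 1 reads in MUT 1 and MUT 2, against 4 and 4 reads in WT 1 and WT 2. The MUT libraries held 7 reads in all, against 8 in WT. Depth differed between the libraries, and the mean level was 0.0737 CPM in MUT, against 0.0699 CPM in WT. At this depth no difference was detectable for these 3 genes, and the data do not bear out their place among Leydig markers in these libraries.

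Divided by the length of all annotated exons, mean levels ran in the order Fabp3, Insl3, Vcam1, Sult1e1, Hao2, Prlr and Lhcgr in WT. They were 100.2 and 95.2 CPM per kb for Fabp3, and 40.5 and 50.1 CPM per kb for Insl3, in MUT and WT. Lhcgr was the lowest of the 7, at 0.973 CPM per kb in MUT and 0.753 CPM per kb in WT. Prlr had 2.24 CPM per kb in MUT and 1.54 CPM per kb in WT. Its annotated exons span 15339 nt over many isoforms, against 9900 nt in its longest transcript, so its level per kb is a lower estimate. The same holds for Vcam1, with 8870 nt of annotated exons against 4088 nt in its longest transcript. The order may therefore depend on the length chosen. Sult1e1 and Hao2 did not differ beyond their spread in MUT, at 2.28 and 5.61 against 3.57 and 4.08 CPM per kb. The other neighbours in this order kept their places in each library.

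**Figure D3:**
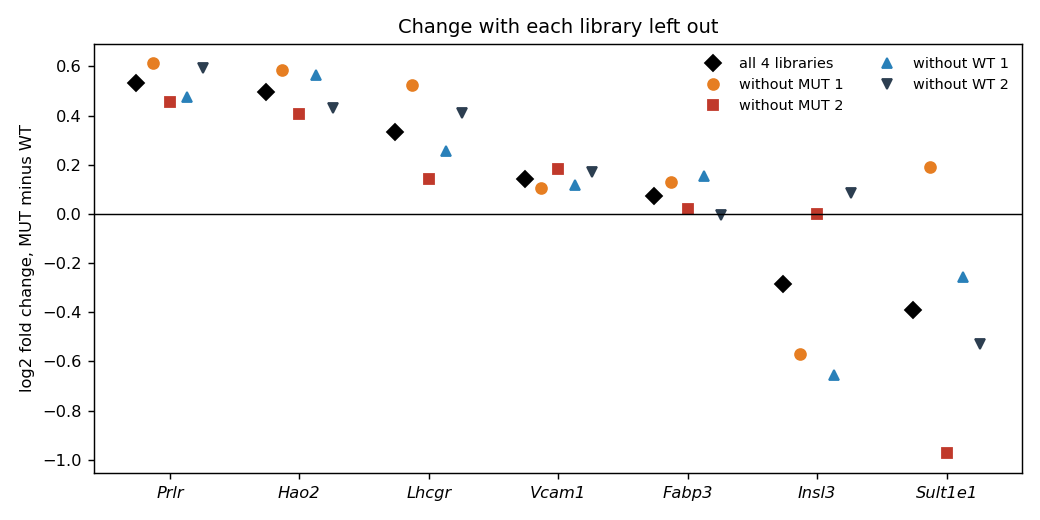
Log2 fold change, MUT minus WT (y axis), of the 7 tested genes with all 4 libraries (black diamonds) and with each library left out. Prlr stays between 0.46 and 0.61, while Sult1e1 runs from -0.97 without MUT 2 to 0.19 without MUT 1.

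The genes of steroid synthesis, the main work of the Leydig cell, were read from a list of 16, of which 15 were tested. Cyp17a1, the 17-alpha-hydroxylase of androgen synthesis and the highest in CPM, was the only one called by limma and was higher, at 657.1 and 680.2 CPM in MUT, against 572.5 and 533 CPM in WT. Its log2 fold change was 0.28 (SE 0.0604, limma adjusted p = 0.0361). That call was lost under 7 of 16 alternatives, among them without MUT 1 (limma adjusted p = 0.0906), MUT 2 (0.16) or WT 2 (0.126). Cyp11a1 had 193.4 and 225.1 CPM in MUT, against 165.1 and 174.4 CPM in WT (0.30, limma adjusted p = 0.0624), and passed by DESeq2 (adjusted p = 0.0345), with equal total CPM (0.0408), and without MUT 1 (0.00916) or WT 2 (0.0457). Of the 15, edgeR called 1 higher and DESeq2 2, and 7 had an unadjusted limma p under 0.05, against 14.7% of all tested genes. Their median log2 fold change was 0.11, with 9 above 0 and 6 below. Hsd3b1, Hsd17b3 and Fdx1 each had 0.29 without a call by limma, and the lowest was Lipe at -0.22. The summed level of the 16 was 1796 and 1866 CPM in MUT, against 1698 and 1694 CPM in WT.

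Set against the mean log2 level of these 15 genes in the same library, Prlr stood at -0.73 and -0.62 in MUT 1 and MUT 2, against -1.17 and -1.03 in WT 1 and WT 2. Hao2 stood at -2.80 and -2.67 in MUT, against -3.07 and -3.18 in WT. For both, the MUT libraries lay above the WT libraries on this relative scale. The groups overlapped for Lhcgr, Insl3, Sult1e1, Vcam1 and Fabp3. The share of all tested genes was not computed on this scale, and on the plain scale it was 23.0%. The mean of the 15 was 0.11 higher in MUT, with 6 genes below 0. Cyp11a1, Cyp17a1, Hsd3b1, Hsd17b3 and Fdx1 lay higher, between 0.28 and 0.30, and levels relative to these alone were not computed. The relative levels are descriptions without a test, since 0.333 is the smallest two-sided p that an exact permutation of so few libraries allows.

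Of 16 other hormone and growth factor receptors of Leydig cells, 14 were tested and 0 were called by limma, edgeR or DESeq2, which gave no adjusted p for 3 of them. An unadjusted limma p under 0.05 was found for 5 of the 14, against 14.7% of all tested genes. The median log2 fold change was 0.11, and 11 of the 14 lay above 0. Il1r1 had 9.14 and 10.5 CPM in MUT, against 7.08 and 7.46 CPM in WT (0.41, limma adjusted p = 0.0929). Ptch1, the receptor gene for the Sertoli cell signal desert hedgehog, had 10.1 and 9.31 CPM in MUT, against 7.8 and 7.04 CPM in WT (0.37, limma adjusted p = 0.128). Insr, the insulin receptor gene, was the highest in CPM, at 39.5 and 39.4 CPM in MUT and 34.2 and 34.3 CPM in WT.

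Downstream of the prolactin receptor, 14 of 15 listed genes were tested and 0 were called by limma or edgeR, with 1 at an unadjusted limma p under 0.05. DESeq2 called none of the 11 for which it gave an adjusted p, and Cish and Irs1 were not among these. The median log2 fold change was 0.05. Cish, a STAT5 target that restrains cytokine signals, had 1.31 and 1.61 CPM in MUT, against 1.91 and 2.05 CPM in WT (-0.34, limma adjusted p = 0.341). Irs1, an adaptor of insulin signals, had 2.79 and 1.78 CPM in MUT, against 1.75 and 1.23 CPM in WT (0.48, limma adjusted p = 0.245). Sos1, a Ras activator, was the highest in CPM, at 43.6 and 39.8 CPM in MUT, against 37.4 and 39.2 CPM in WT.

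Downstream of the luteinizing hormone receptor, 21 genes were tested and 0 were called by limma, edgeR or DESeq2, with 3 at an unadjusted limma p under 0.05, against 14.7% of all tested genes. The median was 0.03, with 13 above 0 and 8 below. Prkar2a, a regulatory subunit of protein kinase A, had 208.9 and 190.4 CPM in MUT, against 213.2 and 256.9 CPM in WT (-0.23, limma adjusted p = 0.176). Adcy7, an adenylate cyclase gene, had 10.1 CPM in both MUT libraries, against 11.6 and 13.2 CPM in WT (-0.27, limma adjusted p = 0.224). The highest in CPM was Pde8a, a phosphodiesterase gene, at 258 and 258.4 CPM in MUT and 234.8 and 249.8 CPM in WT. Germ cells express several of these genes too.

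Of 26 paralogs of the 10 genes, 11 were tested and 0 were called by limma, edgeR or DESeq2, with 1 at an unadjusted limma p under 0.05 and 4 with no adjusted p from DESeq2. Their median log2 fold change was -0.02. Fabp9, a germ cell carrier of fatty acids, was the highest in CPM, at 826.1 and 757.1 CPM in MUT and 891.2 and 824.7 CPM in WT. Fabp12 had 39.6 and 40.4 CPM in MUT, against 46.6 and 45.5 CPM in WT (-0.20, limma adjusted p = 0.218). Fabp5 had 9.02 and 8.65 CPM in MUT, against 7.92 and 7.08 CPM in WT (0.22, limma adjusted p = 0.357).

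**Figure D4:**
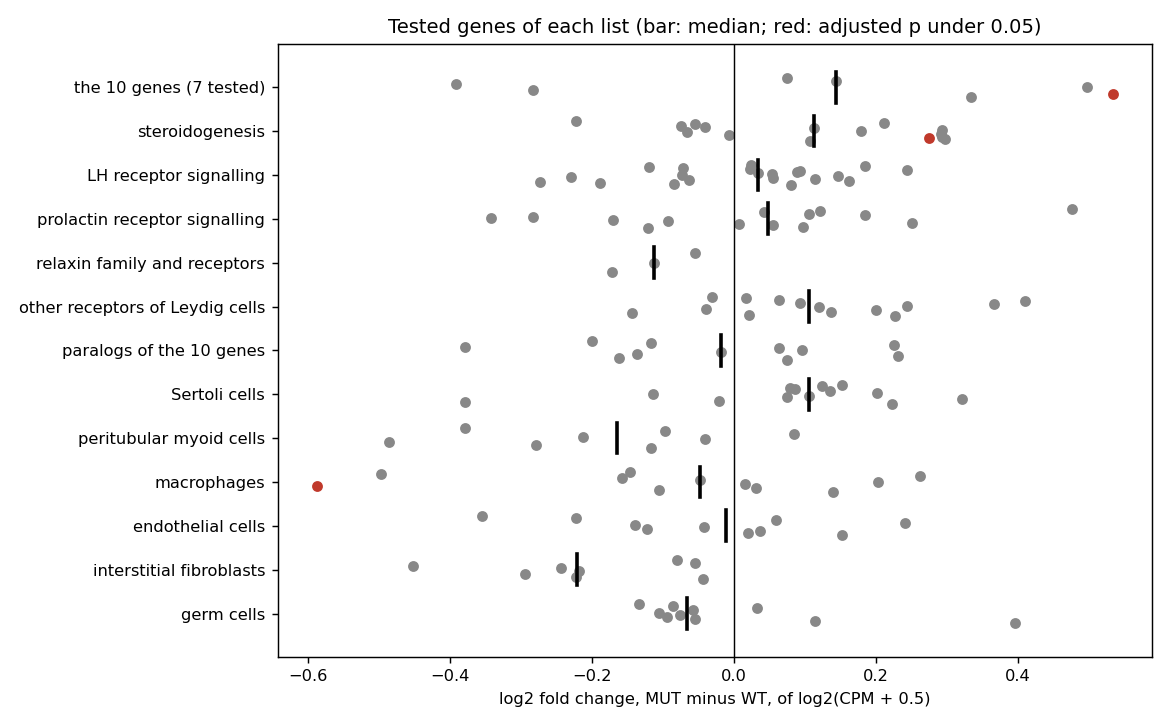
Log2 fold change, MUT minus WT (x axis), of every tested gene in each list shown (y axis). Black bars are medians and red points passed an adjusted p under 0.05. The adrenal cortex and epididymis lists are not drawn. The lists of steroidogenesis, of other receptors of Leydig cells and of Sertoli cells have medians of 0.11. The interstitial fibroblast list has a median of -0.22.

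Few markers of the other cells of the testis were called, and their counts of an unadjusted limma p under 0.05 stand against 14.7% of all tested genes. Sertoli cell genes summed to 1028 and 1055 CPM in MUT, against 990.1 and 942.5 CPM in WT. Among the 13 of them, 10 lay above 0, the median was 0.11, 0 were called and 3 had an unadjusted limma p under 0.05. Rhox5 and Cldn11 came nearest, at log2 fold changes of 0.32 and 0.20 (limma adjusted p = 0.229 and 0.213), and Clu was the highest in CPM. Peritubular myoid genes summed to 442.7 and 462.4 CPM in MUT, against 494 and 475.6 CPM in WT, with 7 of 8 below 0, a median of -0.17, 0 called and 3 at an unadjusted limma p under 0.05. Des, Tpm2 and the highest in CPM, Actg2, had log2 fold changes of -0.49, -0.38 and -0.10. Interstitial fibroblast genes summed to 179 and 197.7 CPM in MUT, against 224.8 and 202.1 CPM in WT. All 8 of these had a log2 fold change below 0, with 0 called, 4 at an unadjusted limma p under 0.05, and Tcf21, Col1a1 and Col3a1 at -0.45, -0.29 and -0.24. None of these 3 lists had a call by edgeR or DESeq2 either, though DESeq2 gave no adjusted p for 2 Sertoli cell and 2 fibroblast genes.

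Macrophage genes summed to 124.2 and 133 CPM in MUT, against 133.6 and 120.1 CPM in WT. Of 11 tested, 3 had an unadjusted limma p under 0.05 and 1 was called, the MHC class II invariant chain gene Cd74, which fell to 4.62 CPM in MUT, against 7.22 CPM in WT (a log2 difference of -0.59, limma adjusted p = 0.0329). That call was lost under 4 of 16 alternatives, among them without WT 1 (limma adjusted p = 0.144). H2-Aa and Mrc1 had log2 fold changes of -0.50 and 0.26 without passing. Germ cell genes summed to between 13750 and 15530 CPM and none of 10 was called by limma, edgeR or DESeq2 (1 at an unadjusted limma p under 0.05). Prm2, the highest in CPM, had a log2 fold change of -0.13 and Zbtb16, of spermatogonia, 0.40. Adrenal cortex genes Cyp11b1, Cyp11b2 and Mc2r had at most 1 read in any library, while Cyp21a1 and Mrap had log2 fold changes of -0.05 and 0.36, neither called by limma, edgeR or DESeq2 (1 at an unadjusted limma p under 0.05). Of 8 epididymis genes, 1 was tested, Rnase10, at 4.84 and 4.98 CPM in MUT and 4.2 and 3.56 CPM in WT (0.31, limma adjusted p = 0.276). The part of these other cells in the levels of the 10 genes was not tested.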

How the data were processed

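Per the labels' protocols, Trizol RNA of whole mouse testis was DNase-treated and sequenced from stranded TruSeq libraries of mRNA. The authors deposited 1 table of CPM for 24420 symbols. The submitters' processing notes list the build mm10, edgeR 3.8.6, HTSeq 0.6.0 and TopHat2 2.0.10, with no role or order. The sources used here do not state the strand setting. Divided by the smallest value above 0 in its library, every value (100%) was whole within 0.001, so reads were recovered. Columns sum to between 987722.6 and 1011463.1, as CPM of scaled library sizes do.

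The 10 genes and the lists were chosen with earlier results of these data known. limma 3.58.1 in R 4.3.3 (lmFit, eBayes with a trend, two-sided) was run on the deposited CPM as described below, after tests on simulated data. edgeR 4.0.16 and DESeq2 1.42.0 were run on recovered reads as alternatives, beside other pseudocounts, filters, scalings, variances, a replicate block and each library left out. The 10 genes were named, and from each list the called members, the highest in CPM and the 2 with the smallest p. Jak3, Zcchc17 and Lrrc8a were added for position or genotype. Mc2r, Cyp11b1, Cyp11b2, Rxfp2, Hsd3b1, Fdx1 and Lipe were named after their values were seen. Positions and exon lengths come from GENCODE vM21 (GRCm38, the build called mm10), and windows around start sites from RefSeq (GRCm38.p6).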

Additional observations from a re-analysis of the deposited data

How the results depend on the processing

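For the 7 tested genes, 100 of 112 values under 16 alternatives kept their direction and their side of the threshold, 2 lost the call, 6 gained one and 4 turned direction. Against 74 higher and 41 lower genes called over the whole table, 7 and 4 were called without the filter on low values, 5 and 2 without the variance trend, and 35 and 18 after quantile normalization. With each library scaled to the same total CPM they were 127 and 35, and with DESeq2 94 and 72. Under that equal scaling the median change over the table was 0.03. With single libraries left out, between 71 and 115 genes were higher and between 43 and 165 lower. Of the 10 genes, 1 was called higher and 0 lower. The higher count was 0 without the filter or the trend, 2 with equal totals, where Hao2 joined Prlr, and 1 to 2 with single libraries left out, when the lower count was 0 to 1. The cause was not tested. With single libraries left out, the log2 fold change ran from -0.65 to 0.0862 for Insl3 (0.001 without MUT 2), from -0.97 to 0.19 for Sult1e1, from -0.0055 to 0.15 for Fabp3 and from -0.21 to 0.12 for Cyp21a1. That of Prm2 was 0 after quantile normalization. This method gives equal values to a gene of equal rank in every library, so such a 0 can come from the method alone.

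The labels number the libraries 1 and 2 in each genotype, with no statement that a number marks a shared animal or day. Deviations of same-numbered libraries from their group means correlated at -0.13 over 15364 genes. With the replicate number as a block, 57 genes were higher and 31 lower, and Prlr was still the only one of the 10 called. With the numbers crossed, a setting chosen after seeing the data, 131 were higher and 104 lower, and 2 of the 10 were higher.

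Depth limits Cyp2a4, Cyp2a5 and Akr1b7, with 0 to 6 reads a library. With 2 libraries per genotype, the spread of each gene is borrowed largely from other genes.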
